A study of Caenorhabditis elegans with 4 samples.

Results

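The regions described here are the MRE-11 binding sites near the ends of Caenorhabditis elegans chromosomes II, III, IV, V and X. A site was taken as a member when the centre of its peak, in the peak list deposited for the whole series, lay within 500 kb of base 1 or of the highest position reached by any peak of the 3 deposited lists. The rule used position alone. It gave 614 peaks at 10 chromosome ends, which is 5.35% of the 11473 nuclear peaks of that list. The peaks came from chromatin immunoprecipitation and sequencing (ChIP-seq) with a rabbit polyclonal antibody to MRE-11, in 2 ChIP libraries of the strain fem-2(b245), genotype fem-2(b245)III, labelled as hermaphrodites at the germline-containing young adult stage and grown at 20 degrees Celsius. Both libraries carry the same allele, and no second genotype was compared. The growth text describes cultures taken when gravid, whereas the stage label says young adult. Whole worms were ground, so germline and somatic nuclei were mixed. The series also has 2 input libraries of the same worms, which were not analysed here.

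MRE-11 is the nuclease of the complex it forms with RAD-50. The complex holds and trims the ends of broken DNA, and in the worm germline it is needed both to make and to resect the double-strand breaks of meiosis. Chromosome ends are of interest to such a protein because a telomere is a natural DNA end that the cell has to keep from being treated as a break. In C. elegans the regions near the ends also hold the pairing centres, where a chromosome finds its partner in meiosis. These lie towards the left end on chromosomes II, III and X, and towards the right end on IV and V. They are bound by a family of zinc finger proteins, with HIM-8 on X, ZIM-1 on II and III, ZIM-2 on V and ZIM-3 on IV.

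The lists differ in grain, and all values below should be read with that in mind. The whole-series list had a median peak width of 330 bp, against 1265 bp in the replicate 1 list (4212 peaks) and 664 bp in the replicate 2 list (5799 peaks). Within 500 kb of the 10 ends there were 236 replicate 1 peaks and 291 replicate 2 peaks. Read depth is unknown, since the lists hold no counts. The score of each peak is the authors' own and its scale is not stated, so scores served only to rank peaks within 1 list, as a percentile of all nuclear peaks of that list. Positions are in build WS220 and carry no gene annotation, because no genome or annotation of that build was used here. For the same reason no DNA sequence is shown.

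The outermost positions reached on each chromosome were held by MRE-11 peaks, and the left and right ends differed in which lists held them. At all 5 left ends the whole-series list had a peak that began at base 1, and so did both replicate lists. At all 5 right ends the outermost whole-series peak overlapped no peak of either replicate. The right limit of each chromosome was itself set by the last base covered by any list. That a peak reaches it is thus given by construction. Chromosome lengths of the build were not used, so the limit may differ from the true last base. That the whole-series list reached it in 5 of 5 cases was not given by construction. This contrast was noticed in the data and was not tested.

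At the left end of II the whole-series peak ran over II:1-448, with a score of 33.9 and a rank percentile of 74.3. Replicate 1 had a peak of 1278 bp there, and replicate 2 one of 568 bp. At the left end of V the terminal peak was the widest of the 5, V:1-776, with a score of 27.46. The left end peaks of III, IV and X were III:1-559, IV:1-238 and X:1-332. They had scores of 10.43, 27.92 and 14.94. In the replicate lists the left terminal peaks ranked between percentiles 26.9 and 76.0 (replicate 1) and between 45.3 and 76.1 (replicate 2).

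At the right ends the terminal whole-series peaks had scores from 16.78 to 84.63. The median was 27.46 at the left ends and 16.87 at the right ends. The right end of X had X:17718249-17718889, 641 bp wide, with a score of 84.63 and a rank percentile of 88.5. Among the 1320 nuclear whole-series peaks with at least that score, 1319 overlapped a replicate peak, and the terminal X peak was the exception. The right end of IV had IV:17493207-17493816, 610 bp wide, with a score of 29.09. The peaks II:15278900-15279342, III:13783358-13783723 and V:20923727-20924172 had scores of 16.80, 16.87 and 16.78, which placed them between percentiles 57.4 and 57.8. Of the 4885 nuclear peaks that scored 16.78 or more, 4756 (97.4%) were in at least 1 replicate list.

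The replicate lists stopped short of every right end. The edge of the outermost replicate 1 peak lay 6901 bp from the right limit on II, 11916 bp on III, 4574 bp on IV, 19882 bp on V and 33420 bp on X. In replicate 2 the same distances were 15835 bp on II, 12126 bp on III, 32075 bp on IV, 53511 bp on V and 33833 bp on X. Between the right limit and the outermost peak of either replicate, the whole-series list had 14 peaks over the 5 right ends. At the left ends these distances were 0 in all lists. Why the right ends are without replicate peaks was not tested.

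**Figure D1:**
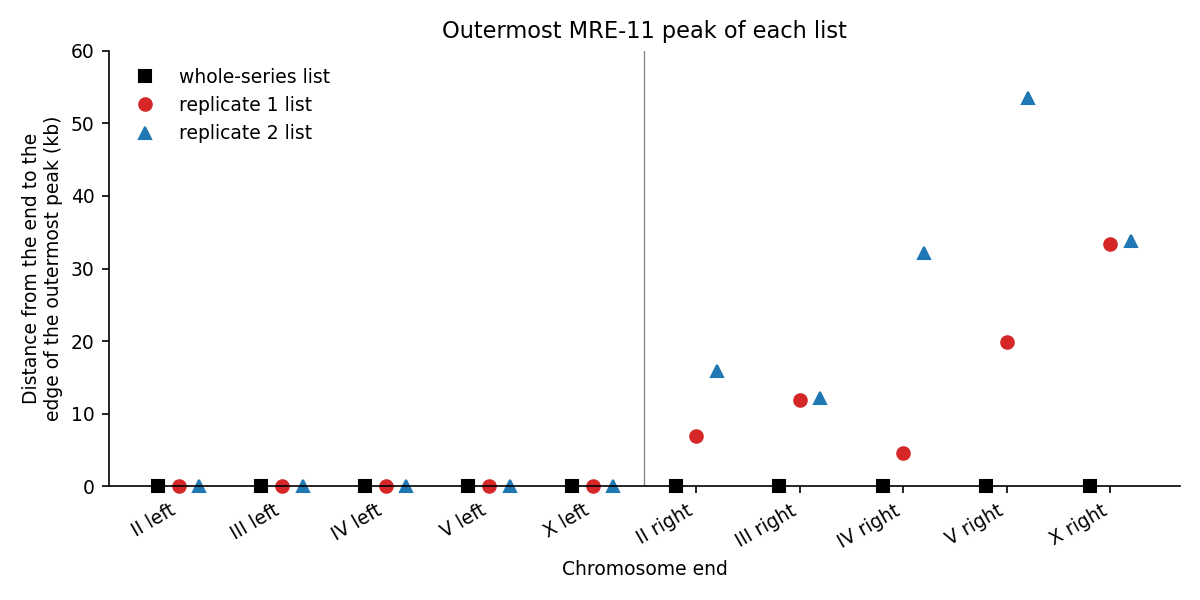
Distance in kb from the chromosome end to the edge of the outermost peak of each list (y axis) at 5 left ends and then 5 right ends (x axis; squares, whole-series; circles, replicate 1; triangles, replicate 2). All 3 lists reach base 1 at the left ends, whereas at the right ends the replicate lists stop 4574 to 53511 bp short.

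Counts in the first kilobases include the terminal peaks, 1 per end, which the definition of the limit fixes at the right ends. All ends had at least 1 whole-series peak within 5 kb, with 18 in total. Within 10 kb there were 27 peaks, from 1 to 6 per end and with a median of 3, where the mean density of the 500 kb ends would give 1.23 per end. The right end of III had the most, with 6 within 10 kb and 13 within 25 kb. The left end of IV had 1 within 25 kb, the fewest at that distance: after its terminal peak came 51006 bp without a peak (IV:239-51244). The left ends together had 11 peaks within 10 kb and the right ends 16. Without the terminal peaks 17 remained within 10 kb, a mean of 1.7 per end, and the difference from 1.23 was not tested.

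Peak density over the full 500 kb was higher at the ends than in the rest of the same arms on average, but not beyond the spread between ends. The rest of the arm is the remainder of the outer 25% of the chromosome, which held 3754 whole-series peaks. The ends had 123 ± 41.9 peaks per Mb and the rest of the arms 104 ± 32.95 (SD, n = 10 each). The mean log2 ratio of each end to the rest of its own arm was 0.25 ± 0.11 (SE, 10 ends), a 1.19-fold difference, with 7 of 10 ends above their arm. It did not pass a two-sided exact sign-flip permutation test over the 10 ends (p = 0.0527; adjusted p = 0.369 over the 7 tests made). This test takes the ends as units, and ends of 1 chromosome share their libraries and chromosome, so it says nothing of how worm cultures vary.

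The 10 ends were far from uniform. The densest was the right end of III, with 112 peaks or 224 per Mb, against 149.7 per Mb in the rest of that arm. The left end of III, by contrast, had 122 per Mb against 148 in the rest of its arm. The largest ratio was on the right of V, where the end had 104 per Mb and the rest 60.7, a 1.71-fold difference, while the left of V had 84 at the end and 86.0 in the rest.

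On II both ends were denser than their arms, with 100 per Mb at the left end against 72.3, and 148 at the right end against 138. Chromosome IV had 144 per Mb at its left end against 123 in the rest, and 82 at its right end against 88.6. X was denser at both ends, with 116 per Mb on the left against 79.1 in the rest of that arm, and 104 on the right against 90.3. The ends below their arms were thus left III, right IV and left V.

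In the replicate 1 list the ends had 47.2 ± 16.0 peaks per Mb and the rest of the arms 38.7 ± 13.0 (SD, n = 10 ends). In the replicate 2 list they had 58.2 ± 22.2 and 51.1 ± 19.7. The end was above the rest of its arm at 8 of 10 ends in replicate 1 and at 5 of 10 in replicate 2. Across the 10 ends the densities in the 2 replicates correlated with r = 0.79 by Pearson and rho = 0.77 by Spearman. For the log2 ratios of end over rest r was 0.82 and rho 0.92. Both are descriptions, because the ends share their libraries. Left III was below the rest of its arm in each replicate, with 36 against 59.1 per Mb in replicate 1 and 52 against 76.7 in replicate 2. Right III was above it in each, with 74 against 56.0 and 114 against 77.4.

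**Figure D2:**
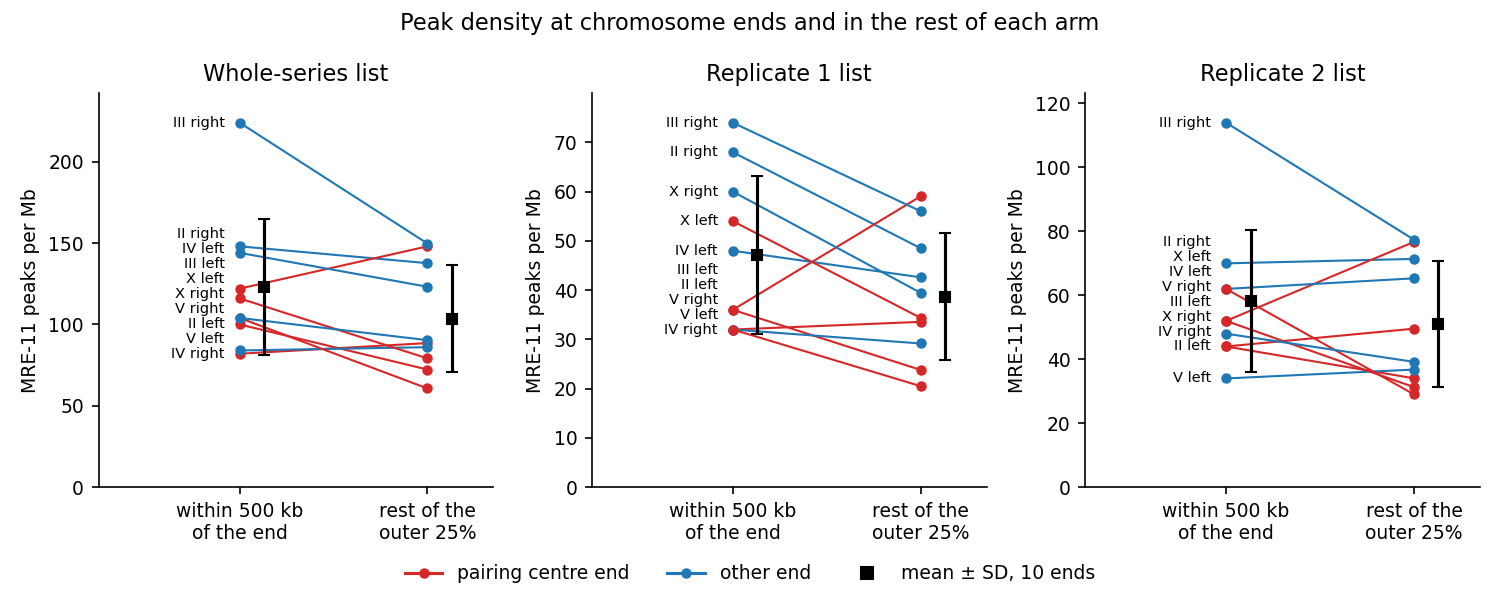
MRE-11 peaks per Mb (y axis) within 500 kb of each of 10 chromosome ends, joined to the rest of the outer 25% of the same arm, for the 3 lists (panels; red, pairing centre ends; blue, other ends; black squares, mean ± SD over 10 ends). The right end of III stands highest in all 3 panels, and left III falls below its arm in each.

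Both ends of X were denser than their arms in all 3 lists. In replicate 2 the left end of X had 62 peaks per Mb and the rest of that arm 29.0, the lowest of the 10 arms in that list, while the right end had 48 and the rest 39.2. Replicate 1 had 54 per Mb at the left end against 34.4 in the rest, and 60 at the right end against 39.4. Of the 110 whole-series peaks at the X ends, 44 were in both replicate lists (40.0%, 95% Wilson interval 31.3% to 49.3%) and 28 in neither (25.5%, 18.2% to 34.3%). In the rest of the X arms these shares were 33.5% (30.0% to 37.2%) and 36.5% (32.9% to 40.2%). The higher share in both lists was that of the left end, with 43.1% against 29.6% in the rest of its arm, while the right end had 36.5% against 36.9%. With 1 X chromosome and 2 ends no test of this difference was made, and the intervals cover counting error only.

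Density was next followed by distance, in steps of 50 kb from the end. Each step is given as peaks per 50 kb, mean ± SD over 10 ends. From 0 to 50 kb there were 7.2 ± 4.49 peaks, from 50 to 100 kb 6.9 ± 5.40, from 100 to 150 kb 5.5 ± 3.21, from 150 to 200 kb 7.2 ± 5.55 and from 200 to 250 kb 6.2 ± 3.65. From 250 to 300 kb there were 5.2 ± 3.61, from 300 to 350 kb 6.4 ± 4.27, from 350 to 400 kb 4.1 ± 4.31, from 400 to 450 kb 6.7 ± 3.77 and from 450 to 500 kb 6.0 ± 5.31. The mean of the 50 kb windows in the rest of the arms was 4.98, over 746 windows pooled, so longer arms weighed more in it. The means of 9 of the 10 steps lay above that value, and the single ends spread widely in each step. With equal weight for each arm the rest had 103.6 peaks per Mb, nearly that of the step from 250 to 300 kb (104 per Mb).

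The means neither rose nor fell steadily from step to step. The outer 250 kb held 330 members and the inner 250 kb 284, and the outer part had more at 7 of 10 ends. The mean log2 ratio was 0.22 ± 0.20 (SE, 10 ends), which did not pass the two-sided exact sign-flip permutation test (p = 0.297; adjusted p = 0.540). The mean log2 ratio was 0.09 without the peaks of the outermost 10 kb and 0.07 without chromosome V. In the first of these the outer part still counted as 250 kb, so the emptied 10 kb lowered the ratio by itself. The left ends together had 136 outer and 147 inner members, and the right ends 194 and 137. At the right of V, 35 members were in the outer and 17 in the inner 250 kb, and at the left of III it was the other way, with 21 and 40.

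**Figure D3:**
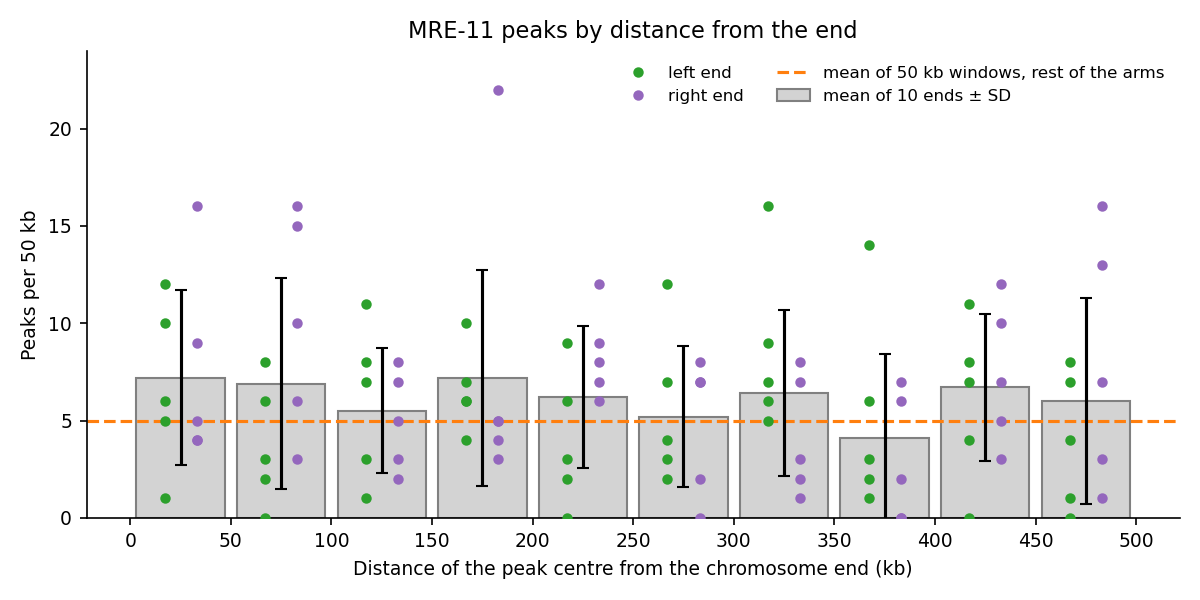
MRE-11 peaks per 50 kb (y axis) against distance from the chromosome end in kb (x axis); bars give the mean of 10 ends ± SD, points the single ends (green, left; purple, right), and the dashed line the mean of all pooled 50 kb windows in the rest of the arms, 4.98. The points spread from 0 to 22 with no steady change along the axis.

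Members were unevenly packed. Of the 100 windows of 50 kb at the ends, 7 had no peak (7%), against 58 of 746 windows (7.77%) in the rest of the arms. At least 15 peaks were present in 6 windows at the ends (6%) and in 23 windows of the rest (3.08%). Most of those 6 were at the right end of III, at 0 to 50 kb (16 peaks), 50 to 100 kb (15), 150 to 200 kb (22) and 450 to 500 kb (16). The others were left III at 300 to 350 kb (16) and right II at 50 to 100 kb (16). The difference in these shares was not tested. The variance of the window counts was 3.05 times the mean at the ends and 3.24 times in the rest. The median gap between neighbouring members ran from 1469 bp at the right end of III to 5752 bp at the left end of V. The longest empty stretch was IV:17155952-17245125, 89174 bp. Left V had a gap nearly as long, V:16730-100888, of 84159 bp.

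The densest window was 150 to 200 kb from the right end of III, with 22 peaks. Most of it was a run of 16 peaks at III:13584228-13598922, a stretch of 14695 bp in which no gap was over 2000 bp. Their scores lay between 3.66 and 12.11, below the list's median of 12.79, yet 13 of the 16 were in both replicate lists. Replicate 1 covered the stretch with 4 peaks, the widest of 5671 bp, and replicate 2 with 6, the widest of 5230 bp. The replicate lists thus held fewer and wider peaks over the same bases.

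Other runs of at least 6 members differed among themselves. The run of 8 at III:321785-327758, 322 kb from the left end, had scores between 2.42 and 5.78 and overlapped no peak of either replicate. The 6 outermost peaks of the right end of III (III:13777231-13783723) likewise overlapped none. At X:161244-170036, by contrast, 6 peaks had a median score of 70.1, and both replicates had 4 peaks there, the highest with a score of 3100. In all, 75 members (12.2%) lay in 10 such runs at 6 of the ends, against 14.2% of the peaks in the rest of the arms. These runs were picked after the members were seen, and no test was made on them.

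**Figure D4:**
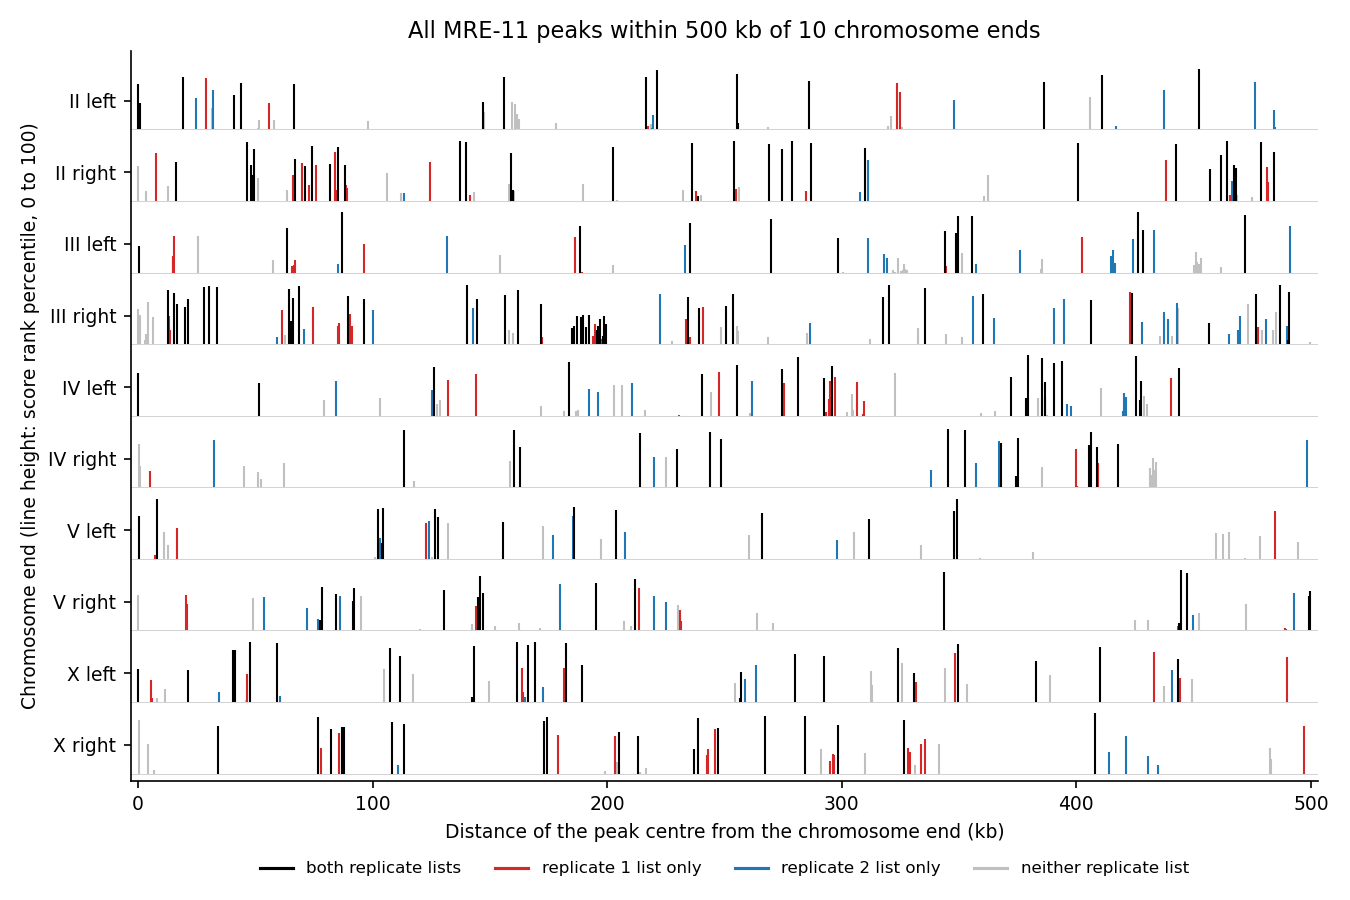
All 614 members drawn at their distance from the chromosome end in kb (x axis), 1 row for each of the 10 ends; line height gives the percentile rank of the score (0 to 100) and colour the replicate lists that hold the peak (black, both; red, replicate 1 only; blue, replicate 2 only; grey, neither). The run of 16 low-scoring peaks at the right end of III, 185 to 200 kb out, and the grey terminal lines of the 5 right ends can be seen.

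Peak width at the ends and in the rest of the arms differed by less than the spread between ends. The median was 335.5 bp at the ends, with quartiles of 222 and 533.75 bp, against 318 bp in the rest, with quartiles of 218 and 533 bp. The mean log2 ratio of the median widths, end over rest of the arm, was 0.04 ± 0.04 (SE, 10 ends) and did not pass the exact sign-flip permutation test (two-sided p = 0.389; adjusted p = 0.544). The median at single ends ran from 269.5 bp at the right of V to 385 bp at the right of III. Broad peaks of 1500 bp or more made up 35 of the 614 members (5.70%) and 144 of the 3754 peaks in the rest (3.84%). They were unevenly spread, with 22 at the right ends (6.65% of members there) and 13 at the left ends (4.59%). Most of those at the right ends were on II and III. The difference between ends and rest in broad peaks was not tested.

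Of the 5 widest members, 1 also had the maximum score of the list. The widest was X:289836-295290, 5455 bp, with a score of 36.24, found as 6178 bp in replicate 1 (score 3100) and 5939 bp in replicate 2 (score 311.96). The second was X:109483-114280, 4798 bp, with a score of 35.63. Both lie at the left end of X, the side of its pairing centre, but whether they overlap the pairing centre was not examined. The others were on III. III:13461801-13465543 (3743 bp) had a score of 155.59, and III:424421-428062 (3642 bp) had the maximum. III:62016-65462 (3447 bp) had a score of 32.13 and overlapped 2 peaks in each replicate list.

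By score the members ranked a little below the rest of the arms, again within the spread between ends. The mean percentile rank was 47.9 ± 5.64 at the ends and 50.4 ± 2.86 in the rest of the arms (SD, n = 10 ends). The mean difference was -2.59 ± 2.24 percentile points (SE), with 5 ends above and 5 below their arms (two-sided exact sign-flip permutation p = 0.309; adjusted p = 0.540). The lowest end was left III, with a mean rank of 38.5 against 56.7 in the rest of its arm, a difference of -18.15, and without chromosome III the mean difference was -0.85 points. The highest was right IV, with 54.7 against 50.8. When all nuclear peaks were divided into 5 equal classes by score, the lowest class held 23.9% of the members and 18.8% of the peaks in the rest, and the highest class 18.2% and 20.3%.

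Strong sites were still present within 500 kb of the ends. The maximum score of the list, 163.35, was reached by 12 members (1.95%) and by 75 peaks of the rest of the arms (2.0%). Among the ends, right II had 4 of them, left III and left X had 2 each, and right III, right IV and left V had 0. The 10 named here are the widest of those found in both replicate lists. They lay 47.7 to 464 kb from their ends, with a median of 329 kb.

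The widest of these 10 was III:424421-428062, 426 kb from the left end. Each replicate gave it a score of 3100, a value shared by 280 peaks of replicate 1 and 300 of replicate 2. Next by width were X:17309778-17311828, of 2051 bp, and II:14814177-14816034, of 1858 bp. The peak II:15141409-15143098, 137 kb from the right end, was 1690 bp wide and overlapped a replicate 1 peak of 5646 bp and a replicate 2 peak of 5110 bp. The one nearest an end was X:47014-48480, 47.7 kb from the left end of X, with scores of 3100 in replicate 1 and 2702.18 in replicate 2. The others were III:85987-87643, II:15024641-15026176, II:451480-452889, IV:378798-380200 and II:14999833-15001191. They were between 1359 and 1657 bp wide.

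The share of sites found by both replicates differed from that of the rest of the arms by less than its error. Of the 614 members, 223 (36.3%, 95% Wilson interval 32.6% to 40.2%) overlapped a peak of both replicate lists, against 36.1% of all nuclear peaks of the whole-series list. Members in neither list numbered 193 (31.4%, 27.9% to 35.2%), against 30.0% of all nuclear peaks. Replicate 1 only accounted for 104 members (16.9%) and replicate 2 only for 94 (15.3%). In the rest of the arms 1368 of 3754 peaks (36.4%, 34.9% to 38.0%) were in both. Over the 10 ends the mean difference was -0.34 ± 3.06 percentage points (SE; two-sided exact sign-flip permutation p = 0.904; adjusted p = 0.904). Its sign turned without chromosome III (1.92 points) and without chromosome IV (0.87 points), and the SE is wide enough that differences of several points in either direction could not be detected.

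Single ends again departed in both directions. Left III had 23.0% of its 61 members in both lists (14.2% to 34.9%), against 45.4% in the rest of its arm, a difference of -22.46 points. Left X had 43.1% of 58 (31.2% to 55.9%) against 29.6%, a difference of 13.5 points. The highest share was that of right II, 44.6% of 74 against 35.9%. Members in both lists were the stronger and wider ones, with medians of 41.99 for score and 573 bp for width. The medians of members in neither were 5.71 and 211 bp.

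The share in both lists was larger in higher score classes, at the ends and in the rest of the arms. In the middle of the 5 score classes 31 of 124 members were in both lists (25%, 18.2% to 33.3%), against 14.8% (12.5% to 17.4%) in the rest of the arms. In the highest class the shares were 93.75% (87.7% to 96.9%) and 97.4% (96.0% to 98.3%). These intervals treat peaks as independent, which neighbours are not, and 13 members in both lists come from the run at the right end of III, whose scores lie below the median of the list. The comparison by score class was not tested.

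**Figure D5:**
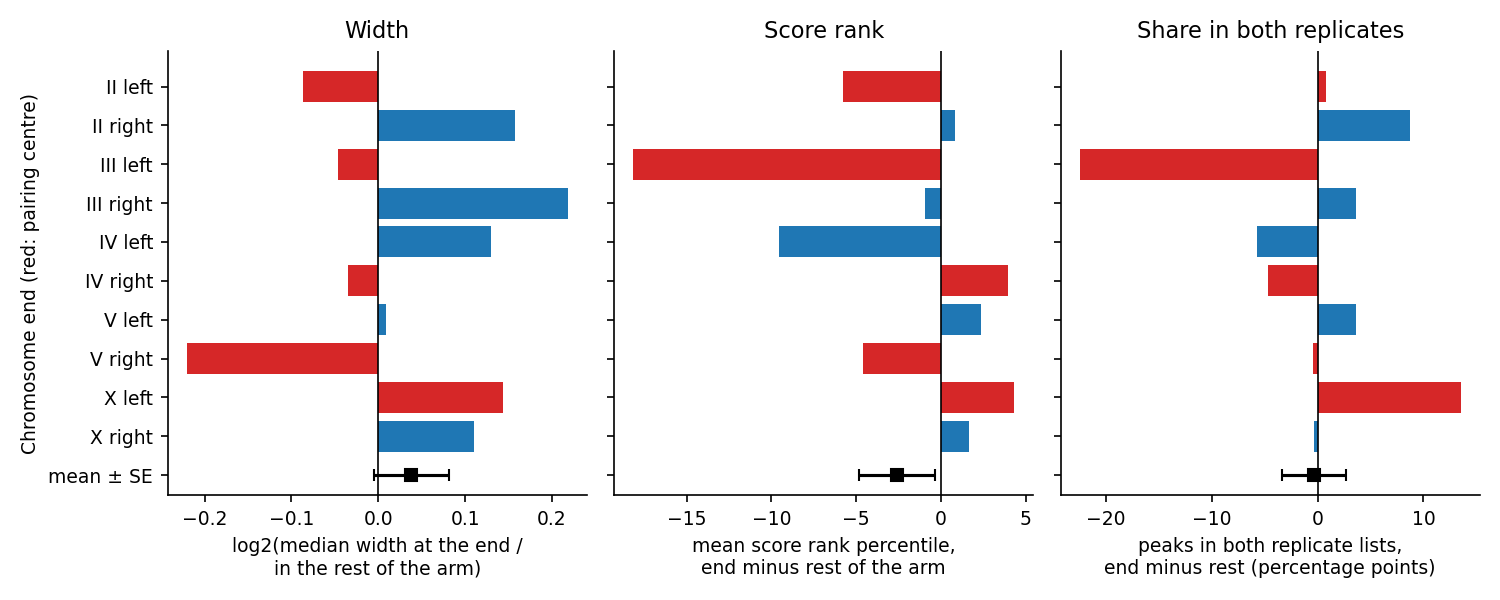
Bars give the difference between each of 10 chromosome ends (y axis; red, pairing centre ends; blue, other ends) and the rest of its arm in log2 median width, mean score rank percentile and percentage points of peaks in both replicate lists (x axes), with the mean ± SE over the ends at the foot of each panel. Left III has the most negative score rank (-18.15) and share (-22.46), and bars run in both directions in each panel.

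Left and right ends were compared within each chromosome. The left ends had 113 ± 22.7 peaks per Mb and the right ends 132 ± 56.5 (SD, n = 5 each). The left end was the denser one on IV, with 144 per Mb against 82 on the right, and on X, with 116 against 104. The right end was denser on the other chromosomes, with 100 on the left against 148 on the right of II, 122 against 224 on III and 84 against 104 on V. The mean log2 ratio of left over right was -0.16 ± 0.30 (SE, 5 chromosomes; two-sided exact sign-flip permutation p = 0.625; adjusted p = 0.729). Without chromosome III the mean was 0.024. With 5 chromosomes the smallest p this test can give is 0.0625, so it could not pass 0.05.

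Of the left end members 32.2% (27.0% to 37.8%) were in both replicate lists and 35.3% (30.0% to 41.1%) in neither. At the right ends these shares were 39.9% (34.7% to 45.2%) and 28.1% (23.5% to 33.2%). The order was thus opposite to that of the terminal peaks themselves. Median widths were 314 bp on the left and 351 bp on the right. The rest of the arms had the same order on average. Its share in both lists was 34.4% on the left and 37.6% on the right (means of 5 arms each). Its median widths averaged 307.6 and 330.2 bp. The run of 16 at the right end of III supplied 13 of the right end members in both lists. The difference in shares was not tested.

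Pairing centre ends were named by side of the chromosome alone, and whether the pairing centres lie within the 500 kb was not examined. The ends on the pairing centre side had fewer peaks on average than the opposite ends. They had 105 ± 15.5 peaks per Mb, against 141 ± 53.8 at the opposite ends (SD, n = 5 each), or 262 against 352 members. The pairing centre end was the sparser one on II, with 100 against 148 per Mb, on III, with 122 against 224, and on IV, with 82 against 144. It was the denser one on V, with 104 against 84, and on X, with 116 against 104. The mean log2 ratio was -0.36 ± 0.25 (SE, 5 chromosomes), and the two-sided exact sign-flip permutation test gave p = 0.25 (adjusted p = 0.540), where again the smallest possible is 0.0625.

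That contrast reached beyond the ends themselves. The rest of the arms with a pairing centre had 89.7 ± 34.1 peaks per Mb, and that of the opposite arms 117 ± 28.3 (SD, n = 5 each). Each end divided by its own arm gave a mean log2 ratio of 0.28 at the pairing centre ends and 0.22 at the others. The contrast of these ratios had the opposite sign (mean 0.07 ± 0.30, SE over 5 chromosomes; two-sided exact sign-flip permutation p = 0.875). Earlier results on these lists had already shown fewer sites on pairing centre arms, so this is not separate evidence of it. Median peak width was 300 bp at the pairing centre ends and 351.5 bp at the opposite ends, and both kinds of end had 6 members of maximum score.

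The members nearest to the 500 kb limit lay 443.857 to 499.764 kb from the ends and had scores from 2.89 to 45.88. The first peaks beyond it lay at 500.754 to 534.389 kb, with scores from 2.42 to 163.35, the highest being X:516291-517498 on the left of X. Set against the next 500 kb inward alone, the ends were denser at 9 of 10 ends, with 123 ± 41.9 peaks per Mb against 102 ± 42.2 (SD, n = 10). IV left was the exception, with 144 against 160 per Mb. The mean log2 ratio was 0.31 ± 0.09 (SE, 10 ends; two-sided exact sign-flip permutation p = 0.0078; adjusted p = 0.0547).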

How the data were processed

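The peak lists were analysed as deposited. The submitters' processing notes name BWA and the build ce10, and per the file headers coordinates are those of WormBase WS220. The replicate lists were made with MACS and the whole-series list with MACS v2, per the source column of the files. Control, thresholds, duplicate handling and pooling: not given in the sources used here. The deposited score of each peak is the authors' own, on a scale that is not stated, and was used only as a rank within 1 list. Calling settings can move peak number, width and splitting.

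The right limit of a chromosome was the highest position that any list reached. Distance was measured from peak centres, and a peak counted as found in a list when 1 bp or more overlapped. Each end was paired with the rest of its own outer 25%. Tests were exact two-sided sign-flip permutations over 10 ends or 5 chromosomes, with Benjamini-Hochberg adjustment over 7 tests, and outer against inner counts had 0.5 added to each. Shares carry 95% Wilson intervals, which cover counting error only. The labels do not tell if the 2 replicates are separate cultures, and p-values describe the spread between ends in these lists. Named peaks were the outermost peak of each end, the 10 members of highest score found in both lists (ties by width) and the 5 widest members. Runs of neighbouring members were named after their values were seen. The members and the comparisons were chosen with earlier results of these data known. Alternatives were the peak list, a score filter, the window, the arm, merging, covered bases, overlap of 50% and leaving out chromosomes. Only the end density test was checked on simulated counts, drawn as independent Poisson numbers. Real window counts scattered more, with a variance 3.05 times the mean at the ends and 3.24 times in the rest. That check thus does not show how the test behaves at the real scatter. Python 3.11.15, numpy 2.4.6, pandas 2.3.3, scipy 1.17.1 and matplotlib 3.10.9 were used.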

Additional observations from a re-analysis of the deposited data

How the results depend on the processing

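None of the 7 tests passed 0.05 after adjustment in the main setting or in any alternative run. For left against right and pairing centre ends this was fixed in advance wherever chromosomes were paired. The smallest p of that sign-flip test over 5 chromosomes is 0.0625, so its failure to pass tells nothing. With 1 chromosome left out 8 ends remained, where a lone small p also could not pass 0.05 after adjustment over 7 tests. The same held for the unpaired comparisons of 5 against 5 ends. The higher mean density of the ends kept its direction in all 16 alternatives, with log2 ratios from 0.10 (a window of 1 Mb) to 0.32 (a window of 250 kb). In the replicate 2 list alone, however, only 5 of 10 ends were above their arms (mean log2 ratio 0.21). The adjusted p of the end density was lowest, 0.0547, against the next 500 kb inward (unadjusted exact sign-flip permutation p = 0.0078). Without the peaks of the outermost 10 kb, an alternative chosen after seeing the data, the log2 ratio was 0.18 (exact sign-flip permutation, adjusted p = 0.540). The end still counted as 500 kb long there, so the emptied 10 kb lowered this ratio by itself. Score rank (13 alternatives, -3.98 to -0.15 points) and outer against inner density (12, log2 ratios 0.07 to 0.45) also kept their direction but moved in size. Score rank was -0.15 with the 50% of higher scores and -0.51 in the replicate 2 list alone. Outer against inner was 0.07 without V, 0.09 without the peaks of the outermost 10 kb and 0.45 in the replicate 1 list alone (unadjusted exact permutation p = 0.0586). For the value of 0.09 the outer part still counted as 250 kb long.

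The remaining results changed sign in at least 1 alternative. The width ratio was -0.035 with peaks in both replicate lists, -0.062 with the 50% of higher scores and from -0.013 to -0.0019 with 1 replicate left out. The difference in the share in both lists was 1.252 points with a window of 250 kb and 0.19 with one of 1 Mb. It ran from -2.07 (without X) to 1.92 (without III) with 1 chromosome left out. A different measure was the share of 1 replicate's own peaks that overlapped a peak of the other replicate list. Its difference, end minus rest, was -1.60 points for replicate 1 peaks and 1.12 for replicate 2 peaks. With 1 chromosome left out, left over right ran from -0.40 (without IV) to 0.024 (without III). It was -0.44 with peaks in both lists, -0.40 with the 250 kb window, and -0.30 and -0.31 in the lists of replicates 1 and 2 alone. The pairing centre contrast, -0.36 in the main setting, kept its direction in 14 of 15 alternatives. The exception was 0.065 with each end divided by its arm, which is a different quantity. The cause of these changes was not tested. Among replicate lists alone, the pairing centre ends were sparser on 4 of 5 chromosomes in replicate 1, with V equal at 32 per Mb (mean log2 ratio -0.54), and on 3 of 5 in replicate 2 (-0.26). Of the chromosomes left out, III moved the score rank most: without it the mean difference was -0.85 percentile points, against -2.59 with all 5. No paired analysis was possible because no list analysed here belongs to a single input library, so no input value could be set beside its numbered partner. Depth is unknown, and its part in the peaks found in 1 replicate list alone was not tested.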

Other observations

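The ends of chromosome I lie outside the rule and were set beside the others as values. Its left end had 80 whole-series peaks within 500 kb, or 160 per Mb, against 155 per Mb in the rest of that arm. Its right end had 51, or 102 per Mb, against 102.2. Both were thus close to their own arms, where the 10 ends above averaged a log2 ratio of 0.25. With all 12 ends the mean was 0.21 ± 0.09 (SE), and 8 of 12 were above their arms. The left end of I was covered from base 1 in all 3 lists. At its right end the outermost replicate peaks stopped 721 bp (replicate 1) and 1051 bp (replicate 2) short of the last base reached by the whole-series list, nearer than on any of the other 5 chromosomes.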
